A study of Mus musculus with 2 samples.

Results

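The data describe 9 genes of trans-synaptic adhesion, taken by their symbols from the 43346 Ensembl genes of the deposited tables: the neurexins Nrxn2 and Nrxn3, the neuroligins Nlgn1, Nlgn2 and Nlgn3, the cerebellins Cbln1, Cbln2 and Cbln4, and Lrrtm2. All 9 were found, and all 51 of their transcripts matched the annotation. The tissue was the whole midbrain of healthy newborn mice (postnatal day 0) of the strain B6NTac;B6NCrl/Lap, with males and females pooled. Total RNA longer than 200 nucleotides was freed of ribosomal RNA and made into stranded PE101 libraries (paired reads), with spike-in RNAs added. There was 1 group, no treatment and no altered gene, and 2 libraries from separate tissue isolates: replicate 1 pooled 15 animals, and the size of the pool behind replicate 2 is not given. No condition could be compared, so levels, their order, transcript use and the difference between the libraries were described.

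Neurexins are presynaptic membrane proteins that reach across the synaptic cleft. Their genes make long (alpha) and short (beta) forms from separate promoters, and both forms are spliced at several sites, of which splice site 4 (SS4) alters which partners bind. Neuroligins are postsynaptic neurexin receptors: Nlgn1 is best known at excitatory synapses, Nlgn2 at inhibitory ones and Nlgn3 at both. Cerebellins are secreted proteins of the C1q family that link neurexins carrying the SS4 insert to glutamate receptors of the delta class, whereas Lrrtm2, a postsynaptic leucine-rich repeat protein, binds neurexins without that insert. In whole tissue, fewer cells of a type and less RNA per cell cannot be told apart.

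The SS4 exon of Nrxn3 and the splice site A exons of the neuroligins are shown first, because part of the results on splicing concerns them. They were read from the GENCODE M21 transcripts on GRCm38 (mm10). Capitals mark the alternative exon and lower case the 15 bases of the joined exon on each side. The SS4 exon of Nrxn3, of 90 bases, lies at chr12:90199147-90199236 (+ strand). The splice site A exons of the neuroligins, which lie in the extracellular domain and add an insert known to affect neurexin binding, are at chr3:25920178-25920237 (- strand, Nlgn1), chr11:69830563-69830613 (- strand, Nlgn2), and chrX:101303072-101303131 and chrX:101307075-101307134 (+ strand, Nlgn3). The Nlgn3 pair is called A1 and A2 here, in the order of transcription.
Nrxn3 SS4: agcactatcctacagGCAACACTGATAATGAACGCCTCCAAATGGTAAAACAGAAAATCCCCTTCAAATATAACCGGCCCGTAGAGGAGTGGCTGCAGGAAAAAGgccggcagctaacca
Nlgn1 A: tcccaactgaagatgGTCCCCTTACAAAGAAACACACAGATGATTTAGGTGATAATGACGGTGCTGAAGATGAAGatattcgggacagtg
Nlgn2 A: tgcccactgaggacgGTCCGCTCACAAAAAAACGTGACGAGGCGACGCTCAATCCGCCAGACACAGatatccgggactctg
Nlgn3 A1: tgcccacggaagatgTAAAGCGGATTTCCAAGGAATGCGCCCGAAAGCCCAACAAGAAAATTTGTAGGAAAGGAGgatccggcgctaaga
Nlgn3 A2: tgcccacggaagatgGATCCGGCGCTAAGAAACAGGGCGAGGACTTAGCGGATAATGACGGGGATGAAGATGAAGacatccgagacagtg
The Nlgn1 exon matched Nlgn3 A2 at 43 of 60 positions (71.7%), with GATAATGACGG as the longest run, but Nlgn3 A1 at only 16 of 60 (26.7%). Nlgn3 A1 and A2 matched each other at 19 of 60 positions. Every one of the 12 cassette exons found in the members had a length that is a multiple of 3 and no stop codon in frame, so each adds whole residues.

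All 9 genes were detected, that is, at or above 1 TPM in both libraries (TPM, a level that counts transcripts per length and per library total). The same held for 27.7% of all Ensembl genes and 53.8% of protein-coding genes. The summed level of the 9 was 257.83 TPM in replicate 1 and 219.82 in replicate 2, from 73766 and 119880 counts. Library depth was 46685706 and 72779229 counts, and 3 counts, the limit that a count of 0 allows, corresponded to 0.0643 and 0.0412 CPM (counts per library total), for counting error only. Of the markers of midbrain identity, 10 of 10 transcription factor genes were detected, led by Meis2 (25.77 and 26.93 TPM). All 7 neuronal markers (Tubb3, 815.77 and 726.69 TPM), all 6 astrocyte and radial glia markers (Fabp7, 218.06 and 131.49), all 7 oligodendrocyte lineage markers (Olig1, 32.65 and 36), 4 of 5 microglial markers (C1qa, 10.35 and 8.94) and all 4 endothelial markers (Cldn5, 38.57 and 25.57) were detected, against 3 of 9 forebrain markers (Six3, 2.39 and 2.34), 6 of 9 cerebellar markers, 0 of 8 hindbrain and spinal cord markers and 2 of 5 choroid plexus markers.

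Nrxn2 was the highest of the 9 genes, at 85.45 TPM in replicate 1 and 69.00 in replicate 2 (77.2 ± 11.6 TPM, SD, n = 2), above 98.6% and 98.3% of protein-coding genes. It lies on chromosome 19 (6418731 to 6544169, + strand) and held 24265 and 40727 counts. Nrxn3 stood at 21.83 and 16.18 TPM (19.0 ± 4.0), from 8962 and 11705 counts, on chromosome 12 (88722876 to 90334935, + strand). The libraries did not overlap between these 2 genes: Nrxn2 exceeded Nrxn3 by a log2 ratio of 1.96 in replicate 1 and 2.09 in replicate 2 (2.02 ± 0.09). The annotated Nrxn3 gene spans 1612 kilobases, and its longest coding form encodes 1571 residues against 1710 for Nrxn2. Translated from the annotated transcripts, the longest proteins of the pair were identical at 67.0% of aligned residues.

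**Figure D1:**
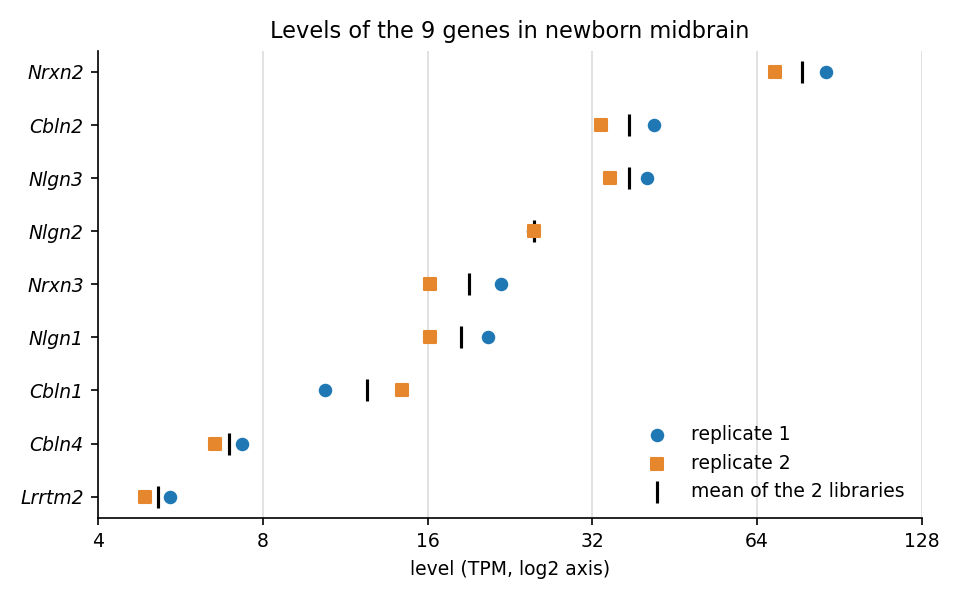
Level of each of the 9 genes (TPM, log2 axis) in replicate 1 (circles) and replicate 2 (squares), with the mean of the 2 libraries as a bar. Nrxn2 stands highest in both libraries (85.45 and 69.00 TPM) and Lrrtm2 lowest (5.41 and 4.87 TPM), and Cbln1 is the member whose replicate 2 lies clearly above replicate 1.

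Among the receptors of neurexins, Nlgn3 (chromosome X, 101299168 to 101325963, + strand) was deposited at 40.20 and 34.42 TPM (37.3 ± 4.09, SD, n = 2). Nlgn2 (chromosome 11, 69823122 to 69837784, - strand) followed at 24.97 and 25.06 TPM (25.0 ± 0.0636), the closest agreement of the 9 genes on this scale. Nlgn1 (chromosome 3, 25426215 to 26332460, - strand), a gene of 906 kilobases, stood at 20.67 and 16.14 TPM (18.4 ± 3.20). Nlgn3 thus made up 46.2% ± 0.929 of the summed neuroligin level, Nlgn2 31.1% ± 2.86 and Nlgn1 22.7% ± 1.93. None of the 3 ratios among them was at least 2-fold in both libraries. Nlgn3 over Nlgn1 came nearest, with log2 ratios of 0.96 and 1.09, but this ratio too rested on the transcript models described next.

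The lead of Nlgn3 rested on 1 incomplete transcript model. Nlgn3-203, of 1852 bases and annotated without the end of its coding sequence, carried 55.36% and 51.70% of the Nlgn3 level but 19.5% and 17.1% of its counts, since a short model turns each count into more TPM. Without incomplete models, Nlgn3 stood at 17.96 and 16.62 TPM, Nlgn2 at 23.41 and 22.89, and Nlgn1 at 20.68 and 16.14. With all counts of a gene given to its complete models, Nlgn3 stood at 22.3 and 20.1 TPM and Nlgn2 at 23.6 and 23.1. The log2 ratio of Nlgn3 to Nlgn2 was 0.57 ± 0.16 as deposited, -0.42 ± 0.06 without incomplete models and -0.14 ± 0.09 with all counts, so the order of these neuroligins reversed with the models counted. The ratio of Nlgn3 to Nlgn1 was -0.20 and 0.04 without incomplete models and 0.11 and 0.31 with all counts. The Nlgn3 counts of 13767 and 23156 are rounded from estimates that were not whole, and Gm21986 overlaps the gene on the same strand. The translated Nlgn1 and Nlgn3 proteins were identical at 72.7% of aligned residues, Nlgn1 and Nlgn2 at 69.4% and Nlgn2 and Nlgn3 at 67.7%.

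Of the secreted linkers, Cbln2 led with 41.56 TPM in replicate 1 and 33.25 in replicate 2 (37.4 ± 5.88, SD, n = 2). It made up 65.5% ± 5.96 of the summed cerebellin level. Cbln1, the form best known from cerebellar granule cells, stood at 10.41 and 14.35 TPM (12.4 ± 2.79), and Cbln4 at 7.33 and 6.55 (6.94 ± 0.552). The fourth family gene, Cbln3, was below the detection bound in both libraries (0.33 and 0.12 TPM), at 0.387% ± 0.235 of the family. Cbln2 exceeded Cbln1 at least 2-fold in both libraries (log2 ratio 1.60 ± 0.55) and Cbln4 likewise (2.41 ± 0.11). The Cbln1 to Cbln4 ratio was 0.50 in replicate 1 and 1.12 in replicate 2 and so missed 2-fold in replicate 1. The cerebellin genes are compact: Cbln2 covers 86711110 to 86718283 of chromosome 18 (+ strand), Cbln1 87468405 to 87472609 of chromosome 8 (- strand) and Cbln4 172036233 to 172043466 of chromosome 2 (- strand). Their proteins of 193 (Cbln1), 224 (Cbln2) and 198 (Cbln4) residues were 74.1% to 80.3% identical, closest between Cbln1 and Cbln2.

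Lrrtm2 was the lowest of the 9, at 5.41 and 4.87 TPM (5.14 ± 0.382, SD, n = 2) from 2233 and 3720 counts. It lies on chromosome 18 (35209003 to 35215024, - strand) inside Ctnna1, a gene of the opposite strand, and its annotated protein has 515 residues. Within its family it made up 13.7% ± 0.196 of the summed level, below Lrrtm1 (13.78 and 13.35 TPM, 36.3% ± 1.37), Lrrtm3 (25.4% ± 0.996) and Lrrtm4 (24.6% ± 2.17). Nrxn2 exceeded Lrrtm2 by a log2 ratio of 3.88 ± 0.11.

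**Figure D2:**
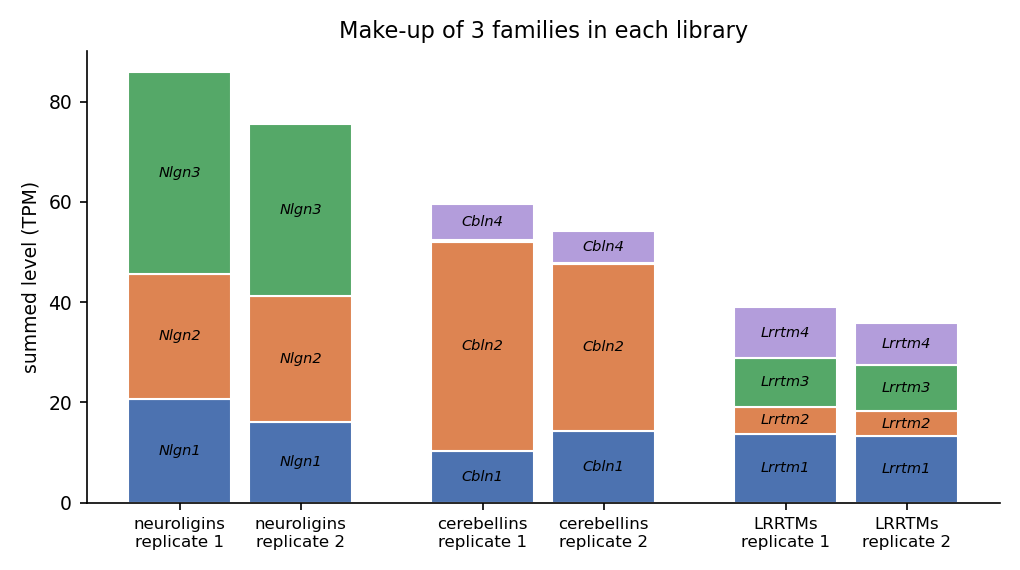
Summed level (TPM) of the neuroligins, cerebellins and LRRTMs in each library, with each bar divided among the family's genes as deposited. Cbln2 fills 69.7% of the cerebellin bar in replicate 1 and 61.3% in replicate 2, Lrrtm2 fills 13.9% and 13.6% of the LRRTM bar, and Cbln3 is too low to label.

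In the order of mean levels, 3 neighbours did not differ beyond their spread. Cbln2 and Nlgn3 changed places between the libraries. Nrxn3 and Nlgn1 differed by a log2 ratio of 0.04 ± 0.05, and Nlgn1 and Cbln1 by 0.58 ± 0.58. The other neighbours differed by more than the SD of their ratio, from Nrxn2 over Cbln2 (1.04 ± 0.01) to Cbln4 over Lrrtm2 (0.43 ± 0.01). Of all 36 pairs, 35 had the same sign in both libraries and 21 were at least 2-fold in both. Of the 7 pairs within a family, 3 were at least 2-fold in both: Nrxn2 with Nrxn3, and Cbln2 with Cbln1 and with Cbln4.

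The transcript tables give the share of each annotated transcript in its gene. Of the 7 members with several transcripts, 5 had the same leading transcript in both libraries: Nrxn3-205 (46.66% and 36.46%), Nlgn1-203 (40.09% and 41.91%), Nlgn2-201 (70.52% and 59.56%), Nlgn3-203, given above, and Cbln1-202 (58.85% and 61.64%). Nrxn2 was spread over its forms, led by Nrxn2-204 in replicate 1 (23.46%) and by Nrxn2-202, a short form, in replicate 2 (24.92%). Cbln2 was led by Cbln2-203 in replicate 1 (40.75%) and by Cbln2-201 in replicate 2 (57.95%, against 37.06% in replicate 1). On counts 5 members again kept their leader, but not the same 5. Nrxn2 was then led by Nrxn2-204 (33.1% and 30.02%) and Cbln2 by Cbln2-201 (42.7% and 63.1%) in both libraries, and Nlgn3 by Nlgn3-201 (38.5% and 40.04%), while Nlgn1 and Cbln1 changed leader. Nlgn1-203 held 25.3% and 27.5% of the Nlgn1 counts and led in neither library. The Cbln2-201 and Cbln2-203 transcripts share a coding length of 672 bases and differ outside it. Cbln4 and Lrrtm2 have 1 annotated transcript each. Transcripts annotated as coding held 87.4% and 88.3% of the Nrxn2 level, 83.2% and 84.1% of Nlgn1, and 71.2% and 62.0% of Nrxn3. In Nrxn3 the rest lay mainly in Nrxn3-208, annotated as a target of nonsense-mediated decay (10.31% and 16.96%), and Nrxn3-204, with a retained intron (11% and 12.86%). Nrxn3-205 is annotated to start at base 88794504, which is also the start of an internal exon of Nrxn3-208.

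Long neurexin forms, those with a coding length of at least 3000 bases, made up 59.6% and 62.6% of the level of coding Nrxn2 transcripts (61.1% ± 2.08, SD, n = 2). For Nrxn3 they made up 74.6% and 64.8% (69.7% ± 6.94). The long forms of Nrxn2 summed to 44.52 and 38.14 TPM and the short and incomplete ones to 30.13 and 22.81. Part of the latter is Nrxn2-209, an incomplete model of 648 bases with 15.59 and 4.95 TPM from 440 and 258 counts. Without it the long share of Nrxn2 was 75.4% and 68.1%. Those of Nrxn3 summed to 11.61 and 6.50 TPM against 3.95 and 3.53 for the short forms. On counts, which weigh long transcripts more, the long share was 80.5% ± 2.98 for Nrxn2 and 85% ± 4.18 for Nrxn3. Among coding transcripts, long forms thus held most of the level of both genes under each measure given here. The size of that share did not settle on 1 value.

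The SS4 exon was held by 64.7% and 69.4% of the level of spanning coding Nrxn2 transcripts (67.0% ± 3.28) and by 86.1% and 83.0% of Nrxn3 (84.5% ± 2.24). Within Nrxn2, the insert was in 54.96% and 56.8% of the long forms. It was in 94.6% and 96.2% of the short forms, almost all of the latter from Nrxn2-202. Nrxn2-203, the only short form annotated without it, also ends elsewhere (base 6544169 against 6533217 in Nrxn2-202) and has 1059 against 1980 coding bases. The share among short Nrxn2 forms is thus not a measure of SS4 alone. Within Nrxn3, every annotated long coding form holds the exon, so a long form without it could not be measured and the share over the whole gene is set in large part by the annotation. Where forms of both kinds are annotated, among the short ones, the insert was in 45.3% and 51.6%. These were divided between Nrxn3-202, with the insert (1.79 and 1.82 TPM), and Nrxn3-203, without it (2.16 and 1.71 TPM). Over both genes, transcripts with the insert, the kind that binds cerebellins, summed to 51.62 and 47.16 TPM. Those without it, the kind that binds Lrrtm2, summed to 23.00 and 18.87. Set beside them, Cbln1, Cbln2 and Cbln4 summed to 59.30 and 54.15 TPM. Lrrtm2 stood at 5.41 and 4.87 TPM, out of 39.02 and 35.84 for the 4 LRRTM genes. These are RNA levels of a whole tissue and hold no measure of binding.

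Other Nrxn2 inserts lie upstream of SS4. The 30-base exon at 6448255 was held by 74.1% and 88.5%, the widest gap between the libraries among the 12 exons (14.4 percentage points), and of the coding transcripts only the incomplete Nrxn2-209 skips it. On counts it was held by 97.8% and 99.2%. The 72-base exon at 6450528 was held by 66.6% and 61.7%. At the next site, an exon of 24 bases that can be extended to 45 bases was used in its 24-base form by 34.1% and 45.5% and in its 45-base form by 20.3% and 20.6%. The incomplete Nrxn2-209 enters the shares of the 72-base, 24-base and 45-base forms too. With complete coding transcripts only, the 72-base exon was held by 54.96% and 56.8%. The 24-base form then stood at 46.0% and 51.4% and the 45-base form at 27.4% and 23.3%. A 27-base exon at 6488784, between exons of 204 and 120 bases, was held by 54.96% and 56.8%. The only cassette exon of Nrxn3 besides SS4 also has 27 bases but lies at another place in the exon order, between exons of 174 and 120 bases (at 89517906), and was held by 12.2% and 9.23%, or 4.58% on counts. In the annotation, Nrxn2-204 lacks the 72-base, the 27-base and the SS4 exon together, so their shares are not separate measurements.

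Of the neuroligin inserts shown above, the 60-base exon of Nlgn1 was held by 50.8% and 50.2% of the level of coding transcripts (50.5% ± 0.398). In Nlgn1 the same transcripts that hold it, Nlgn1-201 and Nlgn1-205, also hold a later exon in a form that is 27 bases longer, so both inserts have the same share here. On counts the share was 69.6%. The 51-base exon of Nlgn2 was held by 93.8% and 91.1%, and the transcript without it is an incomplete model. Nlgn3 A1 was held by 14.9% and 17.0% and A2 by 44.4% and 48.3%. The incomplete Nlgn3-203 enters both shares: A1 stood at 28.6% on counts and at 34.4% with complete coding transcripts only. All 3 complete Nlgn3 forms hold A2, and of the coding transcripts only Nlgn3-203 skips it, so A2 stood at 81.7% on counts. Of the 12 cassette exons, 10 agreed within 5 percentage points between the libraries.

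**Figure D3:**
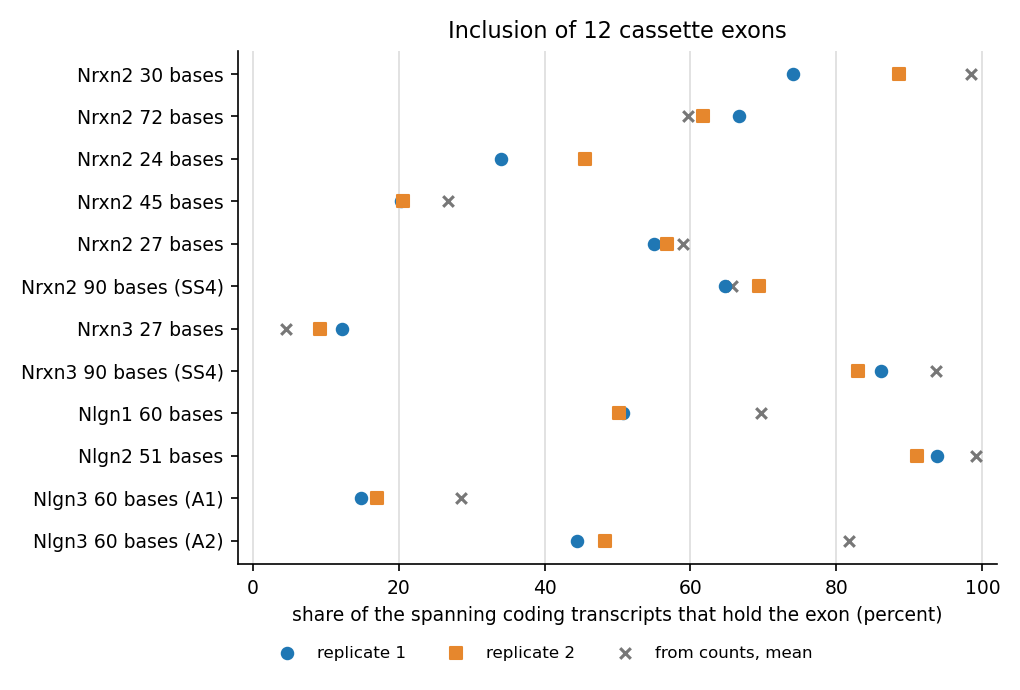
Share (percent) of the level of the spanning coding transcripts that hold each of the 12 cassette exons, in replicate 1 (circles) and replicate 2 (squares), with the mean share from counts as crosses. The libraries lie close together for 10 exons, whereas counts and TPM lie far apart for Nlgn3 A2 (81.7% against 44.4% and 48.3%) and Nlgn1 (69.6% against 50.8% and 50.2%).

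Genes that bind, anchor, cleave or splice the members were described from 11 lists with 65 genes outside the 9, of which 63 were matched. Of these, 60 were detected, against 53.8% of protein-coding genes, and their median level was 13.19 and 10.84 TPM. Only Cbln3 and Nxph2 (0.09 and 0.22 TPM), which encodes a secreted neurexin ligand, were below 1 TPM in both libraries. Fam19a4 passed that bound in replicate 1 alone (1.19 and 0.72 TPM). All 4 cerebellin receptor genes were detected. Neo1, which encodes neogenin, was highest (27.43 and 22.94 TPM). The delta glutamate receptor gene Grid1 (7.72 and 7.06 TPM) was lower, as was Dcc (7.26 and 6.38 TPM), a netrin receptor gene. The related C1q-like genes were led by C1ql1 (11.26 and 8.36 TPM).

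Among other extracellular partners, 12 of 14 matched genes were detected. The latrophilin gene Adgrl1, whose product binds neurexins across the cleft, was highest, at 83.84 and 108.37 TPM, close to Nrxn2 in replicate 1 and above it in replicate 2. All 9 genes for intracellular neurexin partners were detected, led by Apba2 (79.15 and 68.43 TPM), which encodes the adaptor Mint2. The kinase-like scaffold gene Cask stood at 44.91 and 26.83 TPM. On the neuroligin side, the inhibitors Mdga1 (18.59 and 12 TPM) and Mdga2 (11.79 and 7.85 TPM), which block neurexin binding, were both detected. All 15 genes for postsynaptic neuroligin partners were detected. Dlg4, encoding the excitatory scaffold PSD-95, was highest at 53.07 and 52.69 TPM, and Gphn, encoding the inhibitory scaffold gephyrin, stood at 20.23 and 15.47 TPM. All 5 genes for proteases of neurexins and neuroligins were detected.

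All 5 splicing regulator genes were detected, led by Ptbp2 (38.91 and 26.24 TPM), the neuronal polypyrimidine tract binding protein. The STAR family genes, whose proteins are known to promote skipping of the SS4 exon, stood at 21.62 and 14.80 TPM (Khdrbs1), 8.46 and 5.32 TPM (Khdrbs2) and 13.19 and 13.31 TPM (Khdrbs3).

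**Figure D4:**
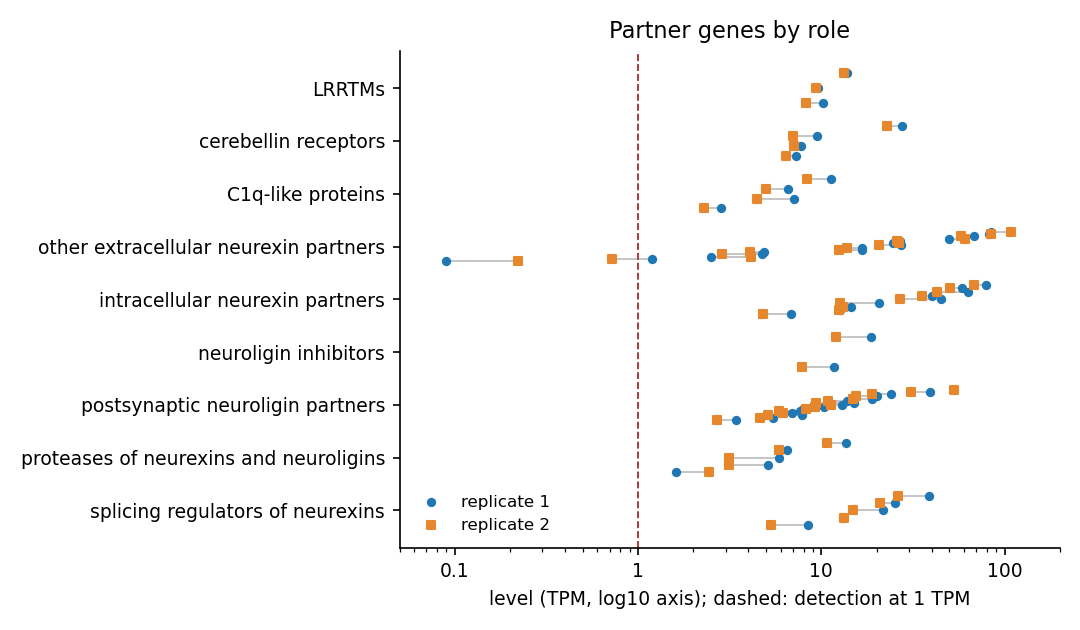
Level (TPM, log10 axis) of each matched partner gene outside the members and the other cerebellins, by role, in replicate 1 (circles) and replicate 2 (squares), joined by a line. The dashed line marks detection at 1 TPM, and Nxph2 (0.09 and 0.22 TPM) is the only plotted gene below it in both libraries.

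None of the 9 genes was past 2-fold between the libraries, against 17.0% of the 18547 genes with at least 10 counts over both. After scaling by the trimmed mean of M values (TMM), the log2 ratio of replicate 2 over replicate 1 lay between -0.22 (Nrxn3) and 0.23 (Nlgn2) for 8 of the 9. For comparison, the median absolute ratio of the 12553 genes with a mean level of at least 1 TPM was 0.20, and their SD was 0.52. Cbln1 stood apart at 0.73, a larger absolute ratio than that of 77.4% of the 18547 genes. In TPM the median gene shifted by -0.25, and Cbln1 stood at 0.46 on that scale.

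The summed levels of the cerebellar, the hindbrain and spinal cord, and the choroid plexus markers were higher in replicate 2, like that of Cbln1. The 9 forebrain markers summed to 7.97 TPM in replicate 1 and 6.93 in replicate 2, with a median log2 ratio of 0.18. All 9 cerebellar markers were higher in replicate 2, by log2 ratios from 0.37 to 3.00 and with a median of 1.36. Their summed level was 51.75 TPM in replicate 1 and 76.87 in replicate 2, and none was at 0 counts in both libraries. Zic1, the highest, stood at 19.57 and 26.81 TPM, and Atoh1, a defining gene of the granule cell lineage, at 0.07 and 0.50 TPM. The 8 hindbrain and spinal cord markers summed to 0.61 and 7.77 TPM, with Hoxa3, Hoxb8, Hoxc4 and Hoxd3 at 0 in replicate 1 (Hoxd3, 2.13 TPM in replicate 2). The 5 choroid plexus markers summed to 16.85 and 168.24 TPM, led by Ttr (14.43 and 162.57 TPM). The part of these markers in the Cbln1 ratio was not tested.

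**Figure D5:**
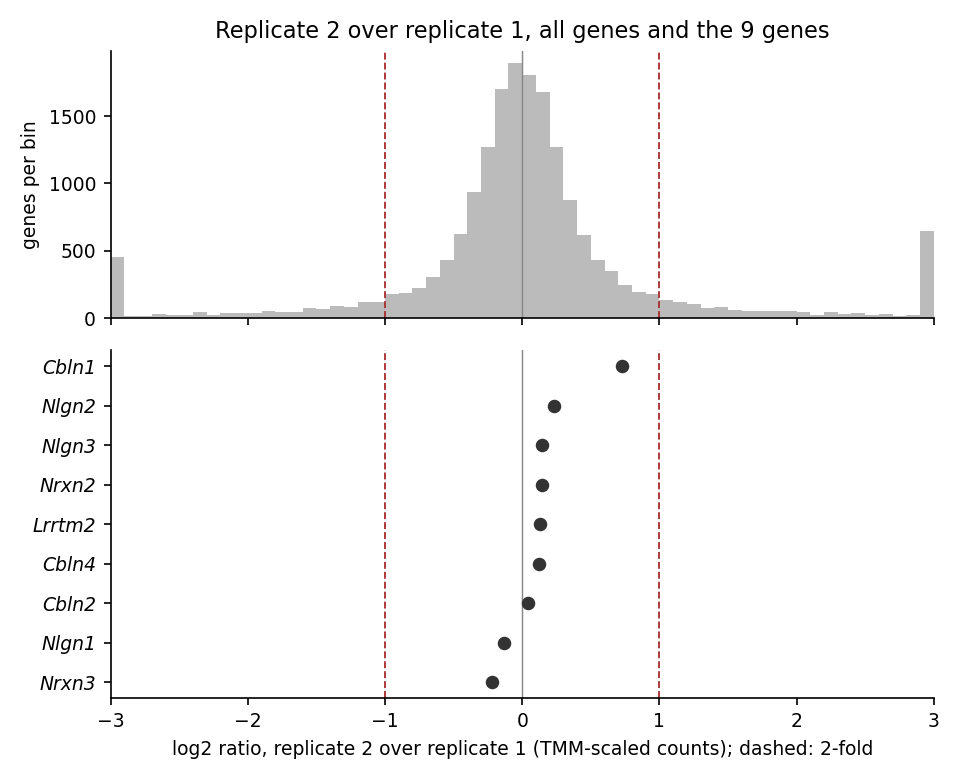
Log2 ratio of replicate 2 over replicate 1 on TMM-scaled counts: above, the number of genes in each bin over 18547 genes, with ratios beyond the axis gathered in the outermost bins, and below, the 9 genes. All 9 lie between the dashed lines at 2-fold, and Cbln1, at 0.73, lies farthest from 0.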

How the data were processed

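Total RNA of 2 midbrain libraries was analysed. Per the deposited notes, the authors quantified genes and transcripts on mm10 with GENCODE M4 using reads aligned to transcripts; which aligner and quantifier they ran is not stated in the labels or notes. The deposited expected counts (estimated counts) divide a read among the transcripts it fits. The deposited TPM and FPKM values divide counts by effective length, and the deposited percent values give each transcript's share of its gene. Names, classes and exons came from GENCODE M21 on the same assembly, which matched 42462 of 43346 gene identifiers; 48 of the 51 member transcripts had the same length there.

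Levels are mean and SD of TPM. Pairs were compared as log2 of TPM + 0.1 within a library and called at 2-fold or more in both. Expected counts, rounded, were scaled by TMM in edgeR 4.0.16 and by size factors in DESeq2 1.42.0, over genes with 10 or more counts in the 2 libraries together. This scaling was tested on simulated data. Transcripts, exons and proteins were handled in Python 3.11.15 with pandas 2.3.3 and Biopython 1.88. Exon shares are the TPM of spanning coding transcripts that hold the exon, over all that span it; they rest on the annotated transcripts, not on junction reads. RNA of 2 isolates in 1 group allows no test, so no p-value was computed, and the SD of 2 libraries is itself imprecise.

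The text names all 9 members, the highest gene of each list, and partner genes below 1 TPM in both libraries; some items are not reported here. Other partner genes were named after their values were seen. The members and lists were chosen with earlier results of these data known. Alternatives were FPKM, other thresholds and pseudocounts, coding or complete transcripts, counts in place of TPM, other scalings and single libraries. The partner genes Ca10 and Ca11 were not analysed here.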

Additional observations from a re-analysis of the deposited data

How the results depend on the processing

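With 2 libraries the order of genes can be described but not tested, and transcript shares depend on the models counted. The order of Nlgn3 and Nlgn2 reversed from a log2 ratio of 0.57 to -0.42 without incomplete models and to -0.14 with all counts on complete models, both alternatives chosen after seeing the data, as were those on complete models and transcript starts below. The long share of Nrxn2 moved from 61.1% to 80.5% on expected counts, 71.7% with complete models only, and, by transcript start, 71.8% on TPM and 82.1% on counts. The long share of Nrxn3 moved from 69.7% to 85% on expected counts and, by transcript start, to 80.0% on TPM and 89.0% on counts. The Nrxn3 SS4 share moved from 84.5% to 93.6% on expected counts, while that of Nrxn2 stayed within its spread. With single libraries, the long share ranged from 59.6% to 62.6% (Nrxn2) and from 64.8% to 74.6% (Nrxn3), and the SS4 share from 64.7% to 69.4% and from 83.0% to 86.1%. All 9 members stayed detected except at a bound of 5 TPM, which 8 passed. Pairs at 2-fold numbered 19 to 26 over all alternatives, partner genes detected 49 to 61, and members past 2-fold between the libraries 0 under each scaling. Nlgn3 over Nlgn1 passed 2-fold with coding transcripts only (1.27) and without replicate 1 (1.09), and stood at -0.08 with complete models only and 0.21 with all counts on them. Without replicate 1, Cbln1 over Cbln4 passed 2-fold too (1.12). With no filter on counts, 4962 genes in place of 3146 were past 2-fold between the libraries. A single library gives no agreement of leading transcripts, so that count was not recomputed. No paired analysis was possible because the labels hold 1 group.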
